A study of Mus musculus with 43 samples.

Results

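The amino acid transporters described here are the mouse genes of 7 solute carrier families, SLC1, SLC3, SLC6, SLC7, SLC36, SLC38 and SLC43. They were taken by symbol (Slc, the family number, the letter a and a member number), without the taurine, creatine, betaine and Slc38a3 carriers (Slc6a6, Slc6a8, Slc6a12 and Slc38a3), which gave 57 of the 54532 genes in the expression table. Slc6a20a and Slc6a20b, whose symbols end in a letter, are not among the 57 and are given separately. Gene expression was measured by RNA-seq in segments S1, S2 and S3 of the proximal tubule, dissected by hand from kidneys of female C57BL/6 mice aged 6 to 8 weeks (Taconic). There were 6 libraries for S1, 6 for S2 and 7 for S3, each pooling 2 to 5 tubules, and the animals carried no named allele or treatment. The study addressed differences along the tubule and between the sexes, and the authors' table gives 1 TPM value (transcripts of a gene as a share of all transcripts, scaled for transcript length and to a fixed total) per gene and segment.

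The proximal tubule takes back nearly all filtered amino acids. Carriers in the apical brush border bring them into the cell, mostly with sodium or by exchange, and other carriers in the basolateral membrane pass them on to the blood. Separate systems serve neutral, cationic, anionic and imino acids, and some SLC7 light chains reach the membrane only when bound to an SLC3 heavy chain. Mutations of several of these genes cause inherited aminoacidurias, such as Hartnup disorder (SLC6A19), cystinuria (SLC3A1 and SLC7A9) and lysinuric protein intolerance (SLC7A7). The membrane and substrate assignments used below come from general knowledge, but they were made with earlier results of these data known.

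Without values per library, no difference below has an SD, a test or a replicate check, and the read depth is unknown. A gene was called higher or lower when its log2(TPM + 1) differed by at least 1, which is 2-fold on that scale. This scale understates the fold of low genes, and folds of plain TPM are given only where both values were at least 1. By the numbers in the library titles, if read as animals, S1 used animals 4 and 5, S2 used 1, 2 and 3, while 2, 3, 4 and 5 gave S3, so animal and segment cannot be told apart between S1 and S2. The segment labels were checked on markers. The 3 S1 markers summed to 7257 TPM in S1, to 188 in S2 and to 1.6 in S3. The 3 S3 markers summed to 57.3, 65190 and 96958 TPM (S1, S2, S3), nearly all of it Kap (56.5, 64255 and 95736 TPM). All 3 were called lower in S1 than in S2, but none was called for S2 minus S3. These 3 markers thus set S1 apart and did not separate S2 from S3. All 5 proximal tubule genes were detected in every segment, 3 of them within 2-fold (Lrp2, Cubn and Hnf4a), while Slc34a1 was at 10241, 2227 and 17 TPM (S1, S2, S3) and Aqp1 at 33, 383 and 561 TPM (S1, S2, S3). Endothelial markers were highest in S2 (7 of 7, summing to 67.6, 633 and 254 TPM), as were 5 of 6 immune markers (53.5, 266 and 90.4 TPM) and the 5 stromal markers (1.6, 15.1 and 1.5 TPM). Most of the immune sum was Cd74 (50.1, 192.7 and 37.8 TPM) and Csf1r (0.5, 32 and 46.9 TPM), the immune marker highest in S3. The 5 thick limb and distal markers summed to 2, 24.1 and 33.5 TPM (S1, S2, S3), of which Umod gave 0.2, 21.1 and 29.1 TPM (S1, S2, S3). The 3 collecting duct markers stayed under 1 TPM. The podocyte list summed to 1.5, 13.7 and 3.3 TPM (S1, S2, S3), nearly all of it Podxl (1.4, 13.4 and 3.1 TPM), while Nphs1 reached 0.2 TPM at most. In bulk tubules, fewer cells of a type and less RNA per cell cannot be told apart.

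Of the 57 transporters, 33 had 1 TPM or more in some segment and entered the comparisons, and 20 reached 10 TPM. Together the 57 took 0.437% of all TPM in S1, against 0.445% in S2 and 0.69% in S3. A few genes held most of this: the 5 highest made up 83.2% of the members' TPM in S1, against 88.1% in S2 and 92.3% in S3. In S1 these 5 were Slc3a2, Slc6a19, Slc7a7, Slc7a8 and Slc7a9. In S3 they were Slc7a12, Slc6a18, Slc3a1, Slc6a13 and Slc1a1, so no gene was in the leading 5 at both ends of the tubule.

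Between their highest and lowest segment, 26 of the 33 transporters compared differed at least 2-fold, against 33.3% of all 16053 genes compared. Of these, 10 peaked in S1, 2 in S2 and 14 in S3. For S1 minus S2, 10 were higher and 12 lower, against 6.62% and 17.7% of all genes. For S1 minus S3, 10 were higher and 14 lower, against 10.5% and 13.1%. For S2 minus S3, 4 were higher and 1 lower, against 8.74% and 2.24%, so that this step was near the background. The members' median difference was -0.66 (S1 minus S2), -0.55 (S1 minus S3) and 0.13 (S2 minus S3), and that of all genes -0.18, -0.01 and 0.12. Expression level bears on such shares: of the 7614 genes with at least 10 TPM in a segment, 12.8% were called higher in S1 against S3 and 14.7% lower, beside 7 and 9 of the 20 transporters at that level.

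**Figure D1:**
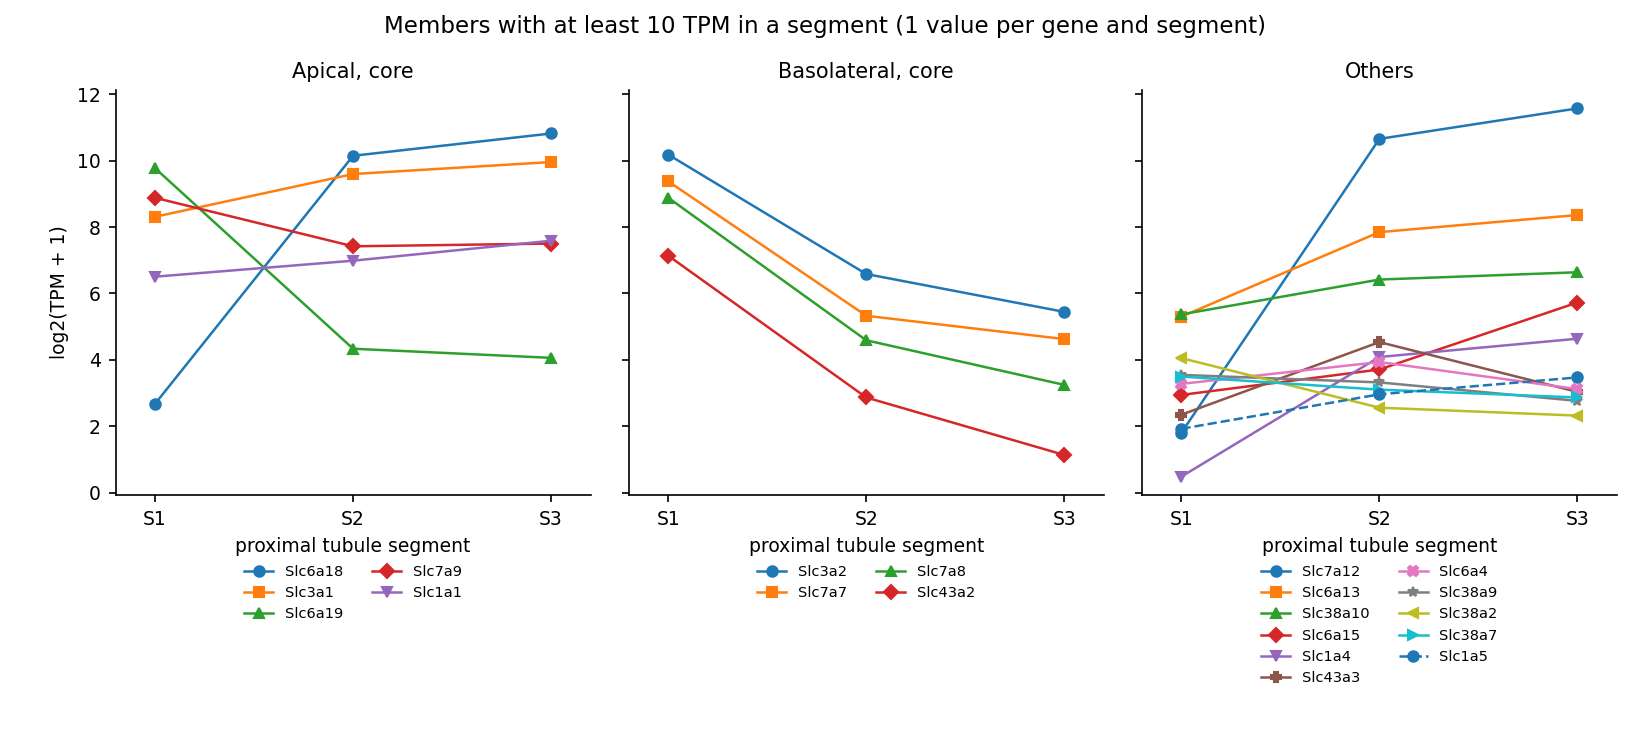
Levels of the 20 transporters with at least 10 TPM in a segment, as log2(TPM + 1) on the vertical axis against segment, 1 point per gene and segment, for the core apical, the core basolateral and the other members. The 4 basolateral genes decline together from S1 on, while among the apical genes Slc6a18 and Slc6a19 cross.

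The split of calls depended on scaling for the comparisons with S2. Quantile normalization moved the median of all genes by 0.27 for S1 minus S2 and -0.17 for S2 minus S3, and gave 10 members higher and 8 lower in the first and 4 and 2 in the second. Removal of mitochondrially encoded genes, Gpx3 and Kap moved it by -0.16 for S1 minus S2, with 10 and 13 members. Size factors from all genes above 0 moved it by 0.65, 0.14 and -0.46 in the 3 comparisons and gave 11 and 6, 11 and 12, and 2 and 8 members, while size factors from genes of at least 1 TPM left all 3 splits as they were. No transporter with at least 10 TPM that was called 2-fold turned its direction under any of these scalings.

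S2 resembled S3 for most of the transporters that separated the ends. Of the 24 that differed 2-fold between S1 and S3, 21 (87.5%) had an S2 value nearer S3 than S1 on the log2 scale, against 79.2% of the 3789 genes that differed so. On a scale with 0 for S3 and 1 for S1, S2 had a median position of 0.171 for the transporters and 0.234 for all such genes. Slc6a19, at 0.048, lay almost at S3. The 3 exceptions were Slc6a15, at 0.725, Slc1a1, at 0.555, and Slc7a4, at 0.534.

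Apical neutral transport showed an exchange of carriers. Slc6a19 (ENSMUSG00000021565), the sodium-coupled broad neutral carrier B0AT1, was at 873.8 TPM in S1, at 19.2 in S2 and at 15.7 in S3. Slc6a18 (ENSMUSG00000021612), its relative B0AT3, which carries glycine and other small neutral amino acids in the mouse, was at 5.4, 1133.2 and 1805 TPM (S1, S2, S3). Between S1 and S2, Slc6a19 was thus 45.5-fold higher in S1 and Slc6a18 210-fold lower in S1 on the plain TPM scale, with differences of 5.44 and -7.47 on the log2(TPM + 1) scale. Between S1 and either later segment the sum of both genes changed far less than each gene, with 879, 1152 and 1821 TPM (S1, S2, S3). It was still 2.07-fold higher in S3 than in S1. Slc6a19 made up 99.4% of the sum in S1, but 1.67% in S2 and 0.862% in S3.

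The genes are neighbours. On chromosome 13 (GRCm38.p6) Slc6a18 spans chr13:73661750-73678023 and Slc6a19 spans chr13:73679745-73700780, which leaves 1721 bases between them. With size factors from all genes above 0, the most divergent scaling, Slc6a18 was also called lower in S2 than in S3 (-1.19), and the S1 differences of both genes kept their direction. Collectrin (Cltrn), the membrane protein that brings these carriers to the brush border in kidney, was at 4371 TPM in S1, at 1549 in S2 and at 1070 in S3. Its level exceeded the summed level of Slc6a18 and Slc6a19 in S1 and S2 and was below it in S3.

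The carrier with the highest level of all 57 was Slc7a12 (ENSMUSG00000039710; chr3:14480697-14505819), a light chain relative described in the mouse as the small neutral carrier ASC2, whose partner is not known. It was at 2.5 TPM in S1, at 1613 in S2 and at 3047.9 in S3. S1 was thus 645-fold below S2 and 1219-fold below S3. Slc7a12 ranked first of the 57 in S2 and in S3 and joint 24 in S1, and it made up 56.6% of all neutral carrier TPM in S2 and 61.2% in S3.

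The cystine and cationic amino acid exchanger of the brush border is a pair of Slc3a1 (rBAT), its heavy chain, and Slc7a9 (b0,+AT), its light chain. The chains moved in opposite directions. Slc3a1 (ENSMUSG00000024131; chr17:85028347-85064241) was at 316.6 TPM in S1, at 773.7 in S2 and at 994.3 in S3, and so 3.14-fold lower in S1 than in S3. Its difference for S1 minus S2 (-1.29) was -0.57 with size factors from all genes above 0. Slc7a9 (ENSMUSG00000030492; chr7:35448727-35466034) was at 470.6, 170.4 and 180.5 TPM (S1, S2, S3), and so 2.61-fold higher in S1 than in S3.

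The second light chain of Slc3a1 is Slc7a13 (AGT1), an aspartate, glutamate and cystine carrier of the S3 brush border in rodents. It was listed at 0 in S1 and was at 1.1 TPM in S2 and 2.9 in S3, or 1.58% of the summed light chains in S3. The ratio of Slc3a1 to its summed light chains was therefore 0.673 in S1, against 4.51 in S2 and 5.42 in S3. Slc7a12, whose partner is not known, was not counted among the light chains of either heavy chain. A male bias of Slc7a13 in mouse kidney is known, and the values here are from females alone.

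The apical anionic carrier Slc1a1 (EAAC1; chr19:28835135-28913960), which takes up glutamate and aspartate, was at 89.9 TPM in S1, at 125.9 in S2 and at 191.5 in S3, 2.13-fold lower in S1 than in S3. Its difference of -1.08 for S1 minus S3 lay just past the threshold, and with size factors from all genes above 0 it was -0.89. Slc1a1 held 95.1% to 97.9% of the summed TPM of the 7 anionic carriers in each segment.

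Basolateral carriers showed a common decline. The heavy chain Slc3a2 (4F2hc; ENSMUSG00000010095; chr19:8706882-8723369) was at 1161.3 TPM in S1, at 95.1 in S2 and at 42.6 in S3, 27.3-fold higher in S1 than in S3. Its light chain Slc7a7 (y+LAT1; ENSMUSG00000000958; chr14:54369442-54420068), which exports cationic amino acids in exchange for neutral ones, was at 663.9, 39.2 and 23.7 TPM (S1, S2, S3). Its light chain Slc7a8 (LAT2; ENSMUSG00000022180; chr14:54722215-54781886), a neutral amino acid exchanger, was at 471, 23.1 and 8.5 TPM (S1, S2, S3).

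The uniporter Slc43a2 (LAT4; ENSMUSG00000038178; chr11:75529915-75577575), which lets branched-chain amino acids and phenylalanine leave the cell, had the widest difference of these, with 139.8, 6.3 and 1.2 TPM (S1, S2, S3). All 4 genes were highest in S1 and lowest in S3, and all 4 were called higher in S1 against either later segment. For S2 minus S3, Slc3a2 (1.14), Slc7a8 (1.34) and Slc43a2 (1.73) passed the threshold and Slc7a7 (0.70) did not. Each of these 3 calls was lost under an alternative: Slc3a2 was at 0.63 and Slc7a8 at 0.86 with size factors from all genes above 0, and Slc43a2 at 0.87 with pseudocount 5. Those 3 and Slc43a3, described below, were the 4 members called higher in S2 than in S3.

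Unlike Slc3a1, Slc3a2 kept step with its partners. The 6 light chains of Slc3a2 in these families summed to 1136 TPM in S1, against 64 in S2 and 32.8 in S3, and the ratio of Slc3a2 to them was 1.02, 1.49 and 1.30 (S1, S2, S3). Slc7a7 and Slc7a8 made up 99.9%, 97.3% and 98.2% (S1, S2, S3) of that sum. The other 4 light chains, Slc7a5 (LAT1), Slc7a6 (y+LAT2), Slc7a10 (ASC1) and Slc7a11 (xCT), did not exceed 0.8 TPM in any segment. Within the sum, the ratio of Slc7a7 to Slc7a8 was 1.41 in S1, against 1.70 in S2 and 2.79 in S3.

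**Figure D2:**
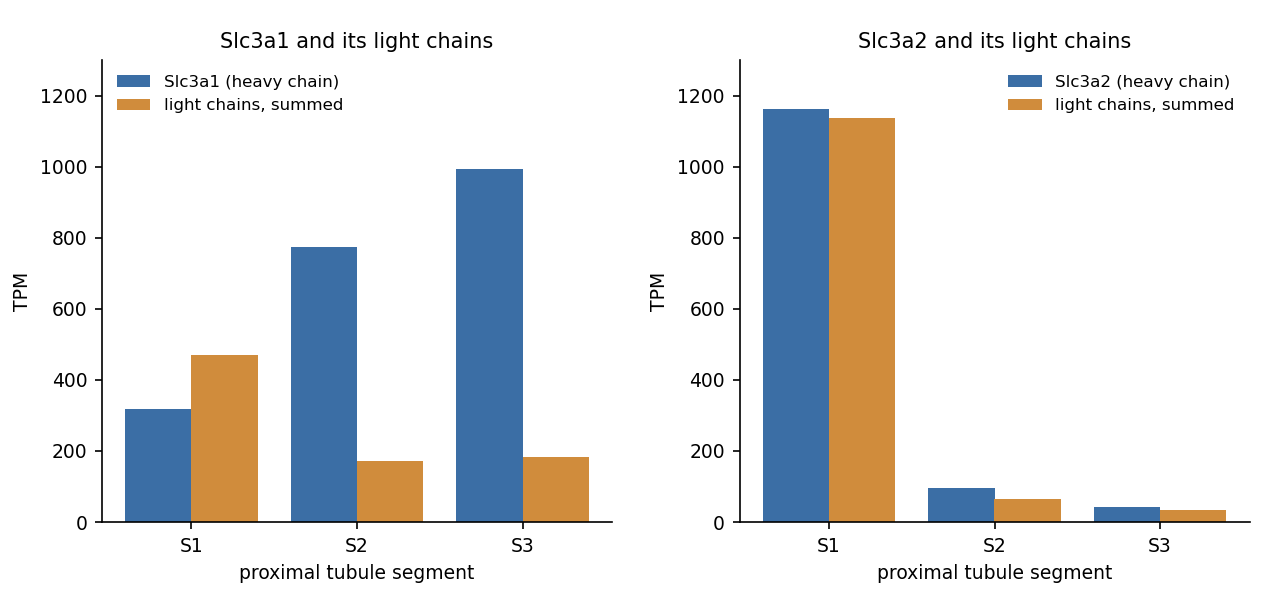
TPM of the heavy chains Slc3a1 (left) and Slc3a2 (right) beside the summed TPM of their light chains, by segment. Slc7a12, whose partner is not known, is in neither sum. Slc3a1 is below its light chains in S1 and at 4.51 and 5.42 times them in S2 and S3, while Slc3a2 stays between 1.02 and 1.49 times its light chains.

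Promoter windows of 5 of these genes are printed because they stand for the opposite gradients: the 3 S1-high members with the highest S1 level and the 2 S3-high members with the highest S3 level among the 42 of 57 members that have a window in the RefSeq table (GRCm38.p6). Each window runs from 250 bases before to 50 bases after an annotated start, 5′ to 3′ on the gene's strand. Slc7a12 and Slc6a18, the 2 highest members in S3, have no window and could not be shown. Where a gene has several windows, the one with most motif matches is shown. Capitals mark exact matches, on either strand, to GTTAAT (part of the HNF1 motif), CAAAGT (part of the HNF4 motif) and TGATGNAA (an ATF4 and C/EBP composite motif). All 3 factors are known regulators in kidney or in amino acid stress.
Slc3a2, chr19:8713848-8714147, minus strand: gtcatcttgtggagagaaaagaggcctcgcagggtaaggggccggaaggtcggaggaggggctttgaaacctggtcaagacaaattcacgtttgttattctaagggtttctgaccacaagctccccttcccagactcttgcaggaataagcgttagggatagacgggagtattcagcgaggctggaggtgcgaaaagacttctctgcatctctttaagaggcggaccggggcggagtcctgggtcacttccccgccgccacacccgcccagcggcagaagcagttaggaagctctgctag
Slc6a19, chr13:73692587-73692886, minus strand: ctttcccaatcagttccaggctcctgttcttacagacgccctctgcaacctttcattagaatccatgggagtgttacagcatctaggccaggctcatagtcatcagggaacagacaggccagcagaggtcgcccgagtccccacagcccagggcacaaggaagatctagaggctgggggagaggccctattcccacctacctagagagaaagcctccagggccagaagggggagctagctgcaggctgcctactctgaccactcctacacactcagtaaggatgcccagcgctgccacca
Slc7a7, chr14:54417895-54418194, minus strand: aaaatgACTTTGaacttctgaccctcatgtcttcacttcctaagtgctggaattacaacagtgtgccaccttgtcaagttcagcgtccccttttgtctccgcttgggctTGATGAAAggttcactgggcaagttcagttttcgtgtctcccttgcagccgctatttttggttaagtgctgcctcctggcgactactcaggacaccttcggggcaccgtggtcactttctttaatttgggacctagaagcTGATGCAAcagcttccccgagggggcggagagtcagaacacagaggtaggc
Slc3a1, chr17:85028097-85028396, plus strand: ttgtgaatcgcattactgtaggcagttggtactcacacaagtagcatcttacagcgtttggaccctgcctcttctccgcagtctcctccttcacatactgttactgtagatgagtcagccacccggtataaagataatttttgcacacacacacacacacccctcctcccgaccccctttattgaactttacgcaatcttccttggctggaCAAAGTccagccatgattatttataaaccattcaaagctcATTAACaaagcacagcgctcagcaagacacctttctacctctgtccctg
Slc6a13, chr6:121300490-121300789, plus strand: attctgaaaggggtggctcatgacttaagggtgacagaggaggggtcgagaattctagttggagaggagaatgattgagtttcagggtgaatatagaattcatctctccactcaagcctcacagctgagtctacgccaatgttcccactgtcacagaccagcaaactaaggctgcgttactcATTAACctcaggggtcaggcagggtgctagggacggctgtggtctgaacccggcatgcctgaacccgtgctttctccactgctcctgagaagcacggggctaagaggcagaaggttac

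The Slc3a1 window holds CAAAGT from base 212 and, on the opposite strand, GTTAAT from base 252. The Slc6a13 window holds GTTAAT on the opposite strand from base 183. The Slc7a7 window holds CAAAGT on the opposite strand from base 7 and TGATGNAA from bases 110 and 250. These letters do not occur in the Slc3a2 and Slc6a19 windows. Those 2 windows lie inside the gene spans (chr19:8706882-8723369 and chr13:73679745-73700780), away from their 5′ ends. The Slc7a7 and Slc6a13 windows also lie inside the gene spans, while the Slc3a1 start is that of its span. Other possible starts of Slc3a2 and Slc6a19 were not searched. The Slc7a7 window was picked from 5 and that of Slc6a13 from 3, while Slc3a2, Slc6a19 and Slc3a1 had 1 each. Another Slc7a7 window, not shown, holds GTTAAT, so this motif was not limited to the S3-high genes. The genes thus had unequal chances of a match. Across all 32851 windows, 7.10% held GTTAAT, 14.4% CAAAGT and 3.97% TGATGNAA. Of the 59 windows of members, 6, 3 and 5 held them, and a match of so few letters is a description and not a binding site.

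Summed by membrane, the core basolateral carriers declined along the tubule, while the core apical sum changed less. Slc7a12 is in neither sum, since its membrane was not assigned; the 38 unassigned genes summed to 111, 1785 and 3252 TPM (S1, S2, S3), in S3 more than the core apical genes. The 7 core apical genes (Slc1a1, Slc3a1, Slc6a18, Slc6a19, Slc7a9, Slc7a13 and Slc36a2) summed to 1757 TPM in S1, against 2224 in S2 and 3190 in S3. The 4 core basolateral genes (Slc3a2, Slc7a7, Slc7a8 and Slc43a2) summed to 2436, 164 and 76 TPM (S1, S2, S3). The ratio of the apical to the basolateral sum was thus 0.721 in S1, against 13.6 in S2 and 42 in S3. Without Slc6a18 the log2 ratio of the apical sums was 0.68 for S1 over S2 and 0.34 for S1 over S3, in place of -0.34 and -0.86. Those sums still held Slc6a19 (873.8 TPM in S1 and 15.7 in S3), so they leave out only 1 side of the exchange between the 2 genes. With all 7 genes, size factors from all genes above 0 gave 0.37 for S1 over S2. Without the heavy chain Slc3a1 that ratio was -0.01, so the apical difference between S1 and S2 had no stable direction. Between S1 and S3 the apical sum differed less than 2-fold (log2 ratio -0.86, S1 over S3), while the basolateral sum was 32.1-fold higher in S1 (5.00).

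The basolateral decline depended on which genes were counted. Slc6a13 (GAT2), a GABA carrier of the basolateral membrane, was at 38.5, 229.5 and 328.3 TPM (S1, S2, S3), against the trend of the core genes. With it, Slc7a1 and Slc7a6 included, the basolateral sum was 2475, 396 and 408 TPM (S1, S2, S3), 6.07-fold higher in S1 than in S3. With Slc1a4 and Slc1a5 also added to the apical side, the apical to basolateral ratio was 0.711, 5.67 and 7.91 (S1, S2, S3). Without both heavy chains the ratio was 1.13, 21.1 and 65.7 (S1, S2, S3).

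**Figure D3:**
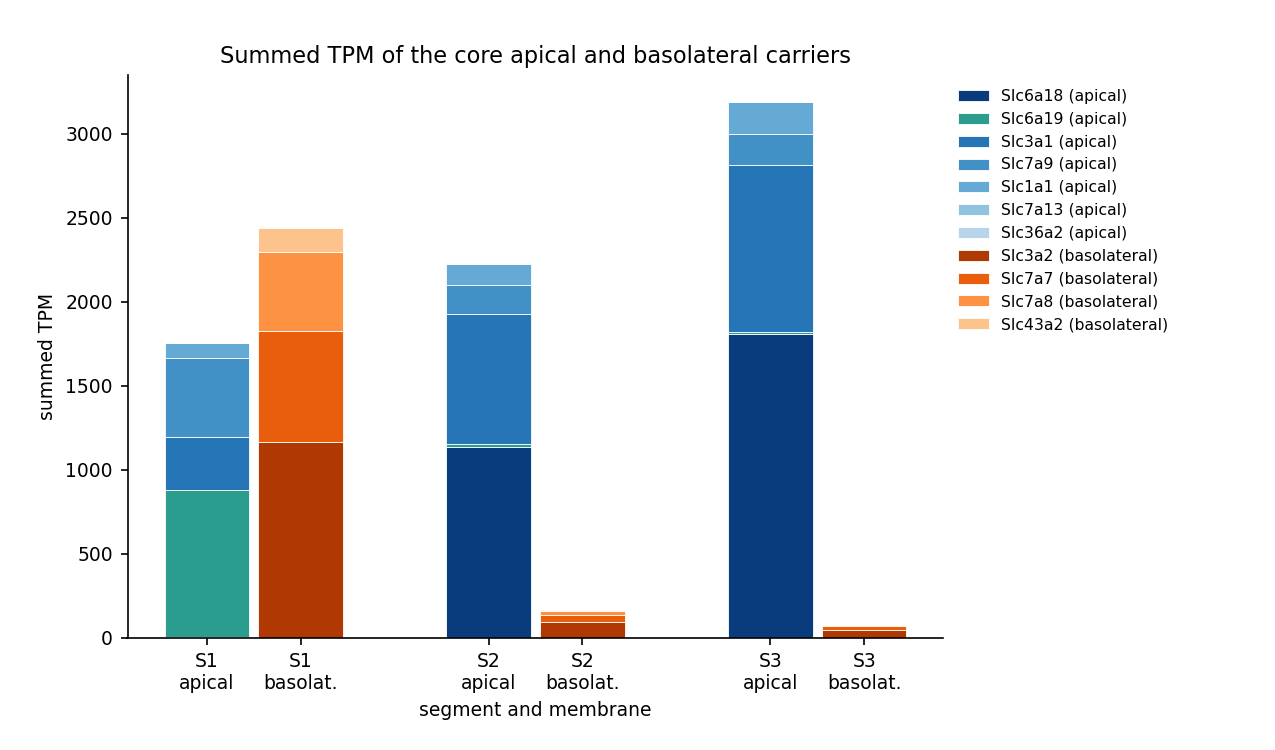
Summed TPM of the core apical (left bar of each pair) and core basolateral carriers (right bar), stacked by gene, in S1, S2 and S3. The basolateral bar is 2436 TPM in S1 and 76 TPM in S3, and the apical bar passes from mostly Slc6a19, Slc7a9 and Slc3a1 to mostly Slc6a18 and Slc3a1.

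By substrate, neutral carriers had the highest sum in every segment, with 1535 TPM in S1, against 2849 in S2 and 4982 in S3 over 17 genes. Without Slc7a12 the log2 ratio of S1 over S3 was -0.34 in place of -1.70, so this gradient rested on that gene, and that of S1 over S2 was 0.31 in place of -0.89. The 7 cationic carriers summed to 1156, 223 and 214 TPM (S1, S2, S3), so that S1 stood 5.18-fold above S2 and 5.40-fold above S3. Slc7a7 led the cationic sum in S1 with 57.4% and Slc7a9 in S2 and S3 with 76.4% and 84.3%.

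The 7 anionic carriers summed to 94.5, 131 and 196 TPM (S1, S2, S3), 2.07-fold lower in S1 than in S3. That ratio was near the threshold, with a log2 value of -1.05, or -0.96 under quantile normalization, and without Slc1a1 it was 0.17. The 6 imino and glycine carriers among the members were low throughout, with sums of 9.3, 14.3 and 13.5 TPM (S1, S2, S3) and none at 10 TPM. These sums leave out the imino acid carrier Slc6a20a and its relative Slc6a20b, which the symbol rule does not take. Slc6a20b was at 93.7, 93.8 and 86.9 TPM (S1, S2, S3) and Slc6a20a at 3.9, 18.7 and 21.2. Slc36a2 (PAT2), the proton-coupled imino and glycine carrier that is placed in the apical membrane, was at 0.2, 0.7 and 0.2 TPM (S1, S2, S3). Slc36a1 (PAT1), a lysosomal and plasma membrane carrier of small neutral amino acids, was at 6.2, 6 and 2.8 TPM (S1, S2, S3), and Slc6a9 (GLYT1), a glycine carrier, at 2.5, 5.4 and 8.8 TPM (S1, S2, S3).

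**Figure D4:**
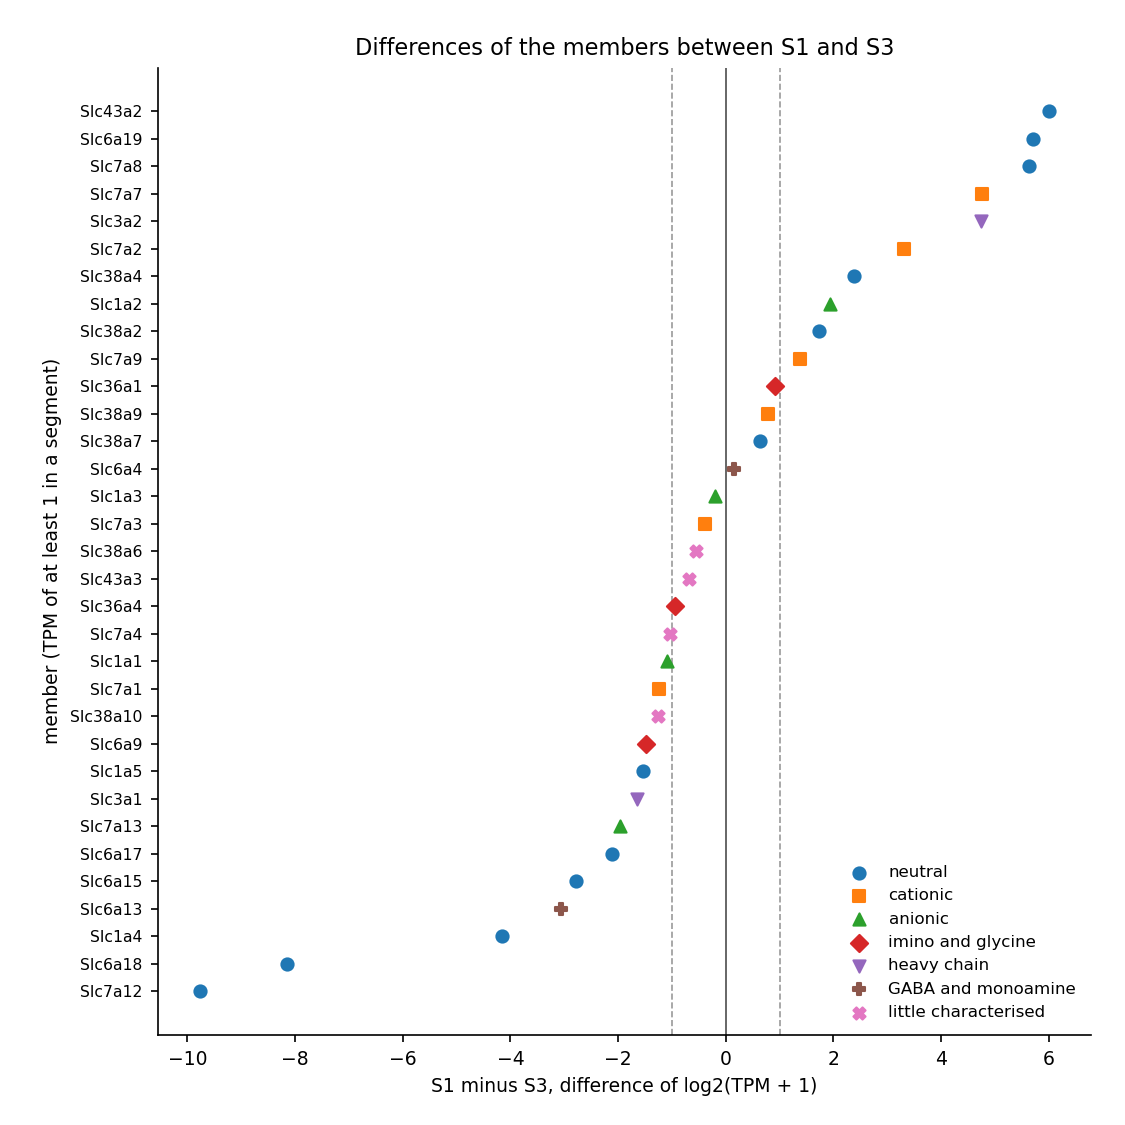
Difference of log2(TPM + 1), S1 minus S3, for the 33 transporters compared, sorted, with symbols for the substrate class and dashed lines at -1 and 1. Neutral carriers occupy both ends, from Slc7a12 at -9.77 to Slc43a2 at 6.00.

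Further members with at least 10 TPM differed along the tubule. Slc1a4 (ASCT1), an exchanger of alanine, serine and cysteine, was at 0.4 TPM in S1, at 16 in S2 and at 23.9 in S3. Its relative Slc1a5 (ASCT2), a glutamine exchanger, was at 2.8, 6.8 and 10.1 TPM (S1, S2, S3), and its calls were lost with pseudocount 5 (-0.60 for S1 minus S2 and -0.95 for S1 minus S3). Slc6a15 (SBAT1), a sodium-coupled carrier of branched-chain amino acids and proline, was at 6.7, 12.1 and 52 TPM (S1, S2, S3). It was the only one of the 33 called lower in S2 than in S3 (-2.02).

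The SLC38 family was divided. Slc38a2 (SNAT2), a sodium-coupled neutral carrier that amino acid shortage is known to induce, was at 15.6, 4.9 and 4 TPM (S1, S2, S3), and so 3.90-fold higher in S1 than in S3. Slc38a10, which is little characterised, was at 40.4, 84.6 and 98.7 TPM (S1, S2, S3), and its difference for S1 minus S2 (-1.05) was -0.35 with size factors from all genes above 0. Slc38a7 (SNAT7, a lysosomal glutamine exporter) at 10.3, 7.6 and 6.3 TPM (S1, S2, S3) and Slc38a9 (SNAT9, the lysosomal arginine carrier that signals to mTORC1) at 10.7, 9 and 5.8 TPM (S1, S2, S3) differed less than 2-fold. The serotonin carrier Slc6a4 was at 8.7, 14.3 and 7.7 TPM (S1, S2, S3) and also differed less than 2-fold.

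Below 10 TPM, 13 transporters were compared. Against S3, 3 of them were higher in S1 and 5 lower, beside 8.41% and 11.7% of the 8439 genes compared that stayed under 10 TPM, and these are named although they were picked after their values were seen. The 3 were Slc7a2 (CAT2, a cationic carrier) at 9.9, 0.2 and 0.1 TPM (S1, S2, S3), Slc38a4 (SNAT4) at 4.7, 0.3 and 0.1, and Slc1a2 (GLT1, a glutamate carrier) at 4, 1.1 and 0.3. The 5 were Slc7a13 and Slc6a9, given above, Slc6a17 at 0.6, 4.7 and 5.9 TPM (S1, S2, S3), Slc7a1 (CAT1, the widespread cationic carrier) at 0.7, 2.5 and 3, and Slc7a4 at 2.5, 3.9 and 6.2. Just inside the threshold stood Slc7a4 at -1.04 for S1 minus S3, and just outside it Slc36a4 at -0.95 and Slc36a1 at 0.92. The 24 transporters not compared reached at most 0.9 TPM in any segment, and 2 of them, Slc1a6 and Slc38a5, were listed at 0 in all 3.

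Slc43a3, now known as a purine nucleobase carrier rather than an amino acid carrier, was 1 of 2 transporters that differed 2-fold and peaked in S2. The other was Slc36a4, which was at 0.4, 2 and 1.7 TPM (S1, S2, S3). Slc43a3 was at 4.1 TPM in S1, at 22.2 in S2 and at 7.2 in S3, and 66.3% of its TPM over the segments lay in S2. The 7 endothelial markers, for example Pecam1 at 3.5, 32.9 and 13.9 TPM (S1, S2, S3), had 62.4% to 79.6% of theirs in S2. For S1 these shares were 12.2% for Slc43a3 and 6.37% to 8.95% for the markers. A peak in S2 was not particular to endothelial markers. Of the 6 immune markers, 5 had their peak in S2, with 68.7% (Cd74) to 88.5% (Lyz2) of their TPM there. Their S1 shares ran from 3.94% (Tyrobp) to 17.9% (Cd74). The remaining immune marker, Csf1r, had 0.63%, 40.3% and 59.1% of its TPM in S1, S2 and S3. The part of endothelial or other RNA in the Slc43a3 values was not tested.

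**Figure D5:**
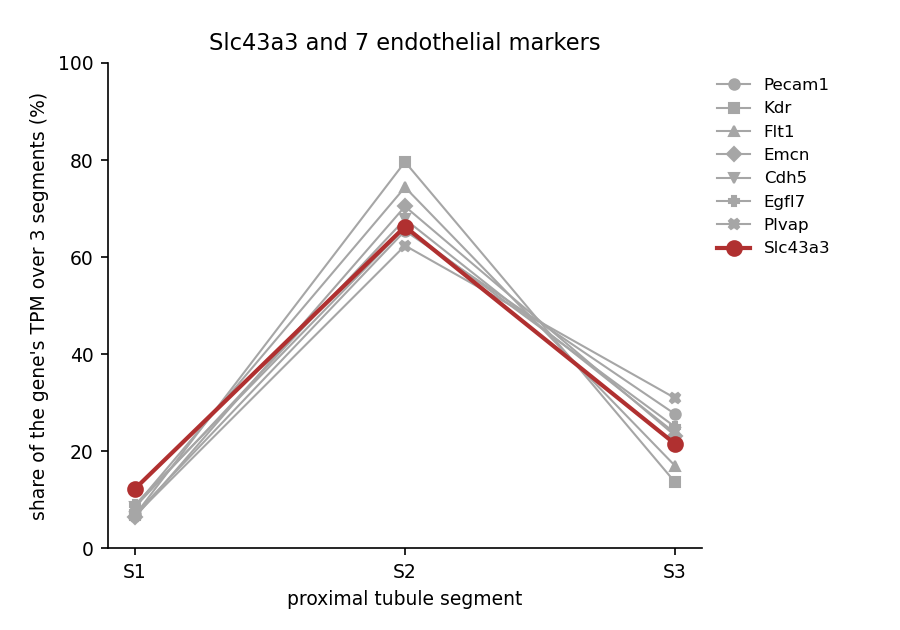
Share of each gene's TPM, summed over the 3 segments, that lay in S1, S2 and S3, for Slc43a3 (red) and 7 endothelial markers (grey). Slc43a3 has 66.3% in S2, within the 62.4% to 79.6% of the markers, and 12.2% in S1, above their 6.37% to 8.95%.

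Genes that work with these carriers or beside them were taken from a list of 10. In S1 minus S2, 4 of the 10 were called higher and 2 lower, against 6.62% and 17.7% of all genes. In S1 minus S3 it was 3 and 3, against 10.5% and 13.1%, while none was called in S2 minus S3. Besides Cltrn, Slc16a10 (TAT1), the basolateral aromatic amino acid carrier, was at 13, 3 and 1.2 TPM (S1, S2, S3). Pqlc2, a lysosomal exporter of cationic amino acids, was at 77.2, 16 and 14.8 TPM (S1, S2, S3), and Ctns, the lysosomal cystine exporter, at 32.2, 14.9 and 17.8, with an S1 minus S2 call (1.06) that was lost with pseudocount 5 (0.90).

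Lower in S1 than in S3 were Slc15a2 (PEPT2), the high-affinity peptide carrier, at 51.5, 433.2 and 723.9 TPM (S1, S2, S3), and Anpep, the brush-border aminopeptidase N, at 20.2, 37.3 and 69 TPM (S1, S2, S3). The imino acid carrier Slc6a20a was at 3.9, 18.7 and 21.2 TPM (S1, S2, S3), and its close relative Slc6a20b was nearly level at 93.7, 93.8 and 86.9 TPM (S1, S2, S3). Reads that the 2 copies share may be split between them, so these values are uncertain. Slc6a20b alone exceeded the summed TPM of the 6 imino and glycine members in each segment. The peptide carrier Slc15a1 (PEPT1) stayed at 0.3 TPM or below.

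Among the 57 genes, 11 pairs lay next to each other among the members with at most 500 kb between them. Slc7a7 and Slc7a8, 302 kb apart on chromosome 14, were both higher in S1 (4.75 and 5.63, S1 minus S3), as were Slc38a2 and Slc38a4, 295 kb apart on chromosome 15 (1.73 and 2.37). In contrast, Slc6a18 and Slc6a19, the closest of the 11 pairs, differed in opposite directions (-8.14 and 5.71). In the other 8 pairs at least 1 gene differed less than 2-fold between S1 and S3, and in the cluster of Slc36a3, Slc36a2 and Slc36a1 on chromosome 11 only Slc36a1 exceeded 1 TPM.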

How the data were processed

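RNA was measured in female S1, S2 and S3 tubules. Per the labels' protocols, cDNA was amplified with a SMARTer V4 kit (10 to 12 PCR cycles), made into Nextera XT libraries and read as 50-base pairs. The protocol names neither molecular identifiers nor strand marking, so PCR copies may remain, and antisense and sense reads cannot be told apart. Per the submitters' processing notes the build was mm10 and STAR, RSEM and cutadapt were among the tools. Which of them made the values, the annotation, and how libraries were combined are not stated in those notes. The values deposited by the authors are TPM, rounded to 1 decimal, 1 value per gene and segment, with no depth. The other 5 value columns fit no RNA-seq group in the labels and stayed out of every step, as did the 24 ATAC-seq samples.

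Differences of log2(TPM + 1) were computed with Python 3.11.15, numpy 2.4.6 and pandas 2.3.3 for genes with at least 1 TPM in a segment, and called at 2-fold. The code was tested on simulated columns. All members with at least 10 TPM and the list of partners are named, except that some items are not reported here. Members, lists and roles were chosen with earlier results of these data known. Slc6a21 was added to the roles, as little characterised, after the table was read. The 3 promoter motifs were chosen after other spellings (longer HNF1 and HNF4 forms, a TATA and a GATA motif) had been searched and the matches seen. Size factors were first computed from all genes above 0. After the shifts of the medians were seen, this scaling was limited to genes of at least 1 TPM in all segments, and the first version was kept as an added one. All 57 gene IDs matched the table of names, and all symbols matched RefSeq GRCm38.p6. Alternatives were other pseudocounts, filters, thresholds, scalings and memberships.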

Additional observations from a re-analysis of the deposited data

How the results depend on the processing

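No paired analysis was possible because the table holds 1 value per segment, and no library could be left out. Over 30 named genes and 3 comparisons, none turned its direction where called; 515 values kept their side of 2-fold, 13 fell below it and 12 passed it. Of the counts, sums and chain balances, 174 values stayed the same by the following rule. A count had to lie within 1.5-fold of the main count. A sum or balance had to keep its side of 2-fold, and a change of sign below 2-fold was not counted. Of the rest, 13 counts moved, 7 sums passed 2-fold, 4 fell below it and 3 turned their direction.

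Counts of members called moved with the pseudocount, the threshold and the scaling. Lower in S1 than in S2 were 6 with pseudocount 5, 5 at 4-fold and 6 with size factors from all genes above 0 (the first version computed; the limit to at least 1 TPM was chosen after seeing the data, and left these counts as they were). Lower in S1 than in S3 were 8 with pseudocount 5 and 6 at 4-fold. Higher in S2 than in S3 were 8 with pseudocount 0.1, 9 at 1.5-fold, 0 at 4-fold and 2 with all genes above 0. Lower in S2 than in S3 were 2 with pseudocount 0.1 or quantile normalization, 6 at 1.5-fold and 8 with all genes above 0.

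Among log2 ratios of sums, the wider assignment turned the basolateral S2 over S3 value to -0.040. Leaving out the highest member gave 0.68 and 0.34 for apical (S1 over S2, S1 over S3), 0.31 for neutral (S1 over S2), -0.34 for neutral (S1 over S3), 0.17 for anionic (S1 over S3), and 3.61, 4.77 and 1.16 for the heavy chains (S1 over S2, S1 over S3, S2 over S3), which is Slc3a2 alone. Quantile normalization gave -1.08 for neutral (S1 over S2) and -0.96 for anionic (S1 over S3). Size factors from all genes above 0 gave -1.04 apical, 0.59 basolateral, -1.32 neutral and -1.10 anionic (S2 over S3), -0.85 anionic (S1 over S3) and 1.48 heavy chains (S1 over S2). The cause of these moves was not tested beyond the left-out genes. Unknown depth leaves values near 1 TPM without a counting error.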
